A study of Carassius auratus with 9 samples.

Results

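The genes described here encode enzymes that make purine nucleotides from small precursors, convert them to AMP and GMP, and recover free bases and nucleosides. They were chosen by product name, as every row whose deposited product name starts with the name of an enzyme of purine synthesis, a phosphoribosyltransferase of purine salvage or purine nucleoside phosphorylase. The rule found 49 of the 74297 gene rows, spread over 11 enzyme steps. Of these, 44 had at least 1 read, 35 had reads in every library, 9 had reads but were too low to be tested, and 5 had no read in any library. The names of the trifunctional and the bifunctional purine biosynthesis enzymes, which carry other steps of the de novo route, matched 0 rows, and those steps were not analysed here.

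As background, purine synthesis starts from ribose phosphate, which PRPP synthase activates to phosphoribosyl pyrophosphate (PRPP). The de novo route builds the ring on PRPP until inosine monophosphate (IMP) is formed, and IMP is then turned into AMP by adenylosuccinate synthetase and lyase or into GMP by IMP dehydrogenase and GMP synthase. Salvage enzymes attach free bases to PRPP again, and purine nucleoside phosphorylase (PNP) splits inosine and guanosine to the free bases hypoxanthine and guanine. In fish skin, reflecting pigment cells called iridophores hold stacked crystals of guanine, and in zebrafish a PNP gene, pnp4a, is widely used as a marker of these cells.

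RNA from the back skin of a goldfish breed, the celestial goldfish (Carassius auratus), was sequenced at 4 months of age. Fish with brown, white or yellow skin were compared, each color in 3 biological replicates, to find genes related to pigment. By the labels the groups differ in skin color only, and how many fish make up a library is not stated. The libraries held 13772601 to 17359648 counted reads. Values are FPKM as deposited (reads relative to gene length and a depth per library), so that levels of different genes can be set side by side. The depth behind them was not the number of counted reads. It was 0.675 (brown 3), 0.689 (white 3) and 0.762 (yellow 3) times that number, and 1.08 (white 2) to 1.39 (white 1) times in the others. A read on a gene of the same length therefore gave more FPKM in the libraries numbered 3. How the depth was set is not stated. Median-of-ratios factors of the FPKM, which compare the typical gene between libraries, were 1.02 in every library. In TPM, where each library has the same total, 34.3% of all genes tested were lower in all 3 libraries numbered 3 than in the others. Neither scale is therefore free of a difference between these libraries and the rest.

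The libraries differed in tissue content. Genes of a skeletal muscle marker list, 168 of whose 177 rows had reads, took 20.7% of the reads of brown 3, 35.4% of white 3 and 27.5% of yellow 3, against 0.261% (yellow 1) to 12.7% (white 2) in the other 6 libraries. Keratinocyte markers, with reads on 79 of 88 rows, took 0.914% to 5.51% of the reads in each library. Of 40 rows of the iridophore list 36 had reads, and their summed level was 80.1 to 104.1 FPKM in brown, 72.7 to 120.3 in white and 73.0 to 97.0 in yellow, so the colors overlapped. Most of that sum came from equilibrative nucleoside transporter rows, at 47.3 to 77.0 FPKM. The 3 rows for leukocyte tyrosine kinase receptor, the receptor that specifies iridophores in zebrafish, summed to between 0 (yellow 3) and 4.01 FPKM (white 2). Melanophore markers summed to 9.94 to 34.1 FPKM in brown, 0.672 to 1.01 in white and 14.1 to 39.8 in yellow, and xanthophore markers to 26.0 to 29.8, 19.7 to 24.6 and 38.5 to 43.4. In whole tissue a smaller number of cells of a type and less RNA per cell cannot be told apart.

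Summed over copies, adenylosuccinate synthetase was the most abundant step, with a mean of 138.8 FPKM in brown, 203.4 in white and 113.0 in yellow, followed by adenylosuccinate lyase at 41.0, 49.7 and 40.9. Next came PRPP synthase at 26.8, 40.1 and 26.1 and PNP at 37.8, 20.8 and 36.6. The early de novo enzymes were lower, with ADE2 at 8.83, 10.1 and 9.74, amidophosphoribosyltransferase at 9.79, 5.13 and 5.44 and FGAM synthase at 2.94, 3.32 and 2.94. IMP dehydrogenase stood at 16.8, 18.5 and 16.5, hypoxanthine-guanine phosphoribosyltransferase (HGPRT) at 15.5, 12 and 15.5, GMP synthase at 5.45, 5.89 and 6.97 and adenine phosphoribosyltransferase (APRT) at 3.05, 5.0 and 4.43. The high means of the 2 leading steps rested on the libraries numbered 3, as described with the AMP branch. PRPP synthase was also highest in FPKM in brown 3, white 3 and yellow 3, at 41.7, 65.6 and 40, beside 15.1 to 32.5 in the others. In TPM it was not, with 61.4 in white 3 and 63.7 in white 2.

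**Figure D1:**
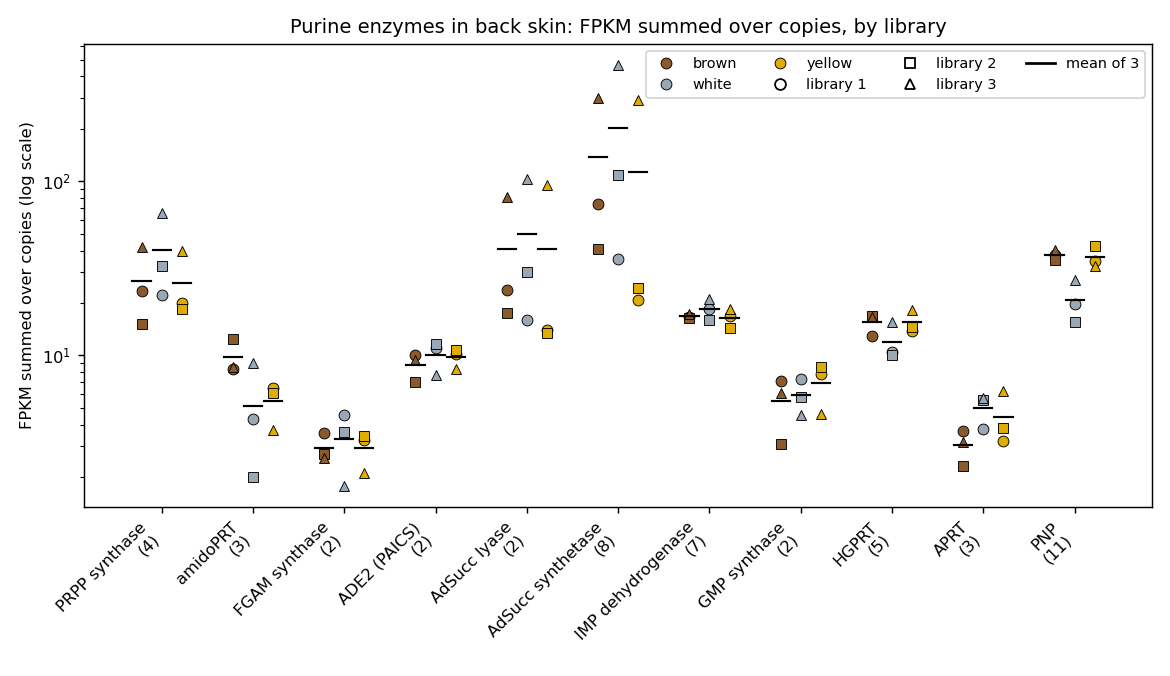
FPKM summed over the copies of each enzyme step (log scale), with 1 point per library, color for skin color, symbol for library number and a bar for the mean of 3; the number of copies is under each name. The triangles of the libraries numbered 3 stand highest for adenylosuccinate lyase and synthetase and for PRPP synthase. The 3 white points of PNP lie below all brown and yellow points.

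No copy passed the test in any comparison. Limma, with adjustment over all 27420 genes tested, called 0 of the 35 tested copies in brown against white, where it called 0.0365% of all genes (0.0219% higher and 0.0146% lower). It called 0 copies in yellow against white, where it called 0.0438% of all genes (0.0328% higher and 0.0109% lower), and 0 in brown against yellow, where it called 0% of all genes. The moderated F test over the 3 colors called 0 copies and 0.0474% of all genes. At an unadjusted p under 0.05 there were 3 copies (8.57% of 35, beside 5.72% of all genes) in brown against white, 2 (5.71% beside 3.5%) in yellow against white and 0 (beside 1.67%) in brown against yellow. Voom on the recovered reads, the other tool run, also called 0 copies, with 2, 2 and 0 at an unadjusted p under 0.05.

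The median log2 change of the tested copies was -0.14 in brown against white, -0.04 in yellow against white and 0.00 in brown against yellow, beside -0.02, -0.03 and 0.01 over all genes tested. The change was above 0 for 12, 15 and 18 of the 35 copies. In FPKM, all 3 brown libraries lay above all 3 white libraries for 2 copies (5.71%, beside 5.74% of all genes) and below them for 0 (beside 5.18%). All 3 yellow libraries lay above white for 3 copies (8.57%, beside 5.09%) and below for 1 (2.86%, beside 4.54%). For brown against yellow the numbers were 1 above (2.86%, beside 2.64%) and 0 below (beside 2.57%). The comparisons against white share the 3 white libraries.

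**Figure D2:**
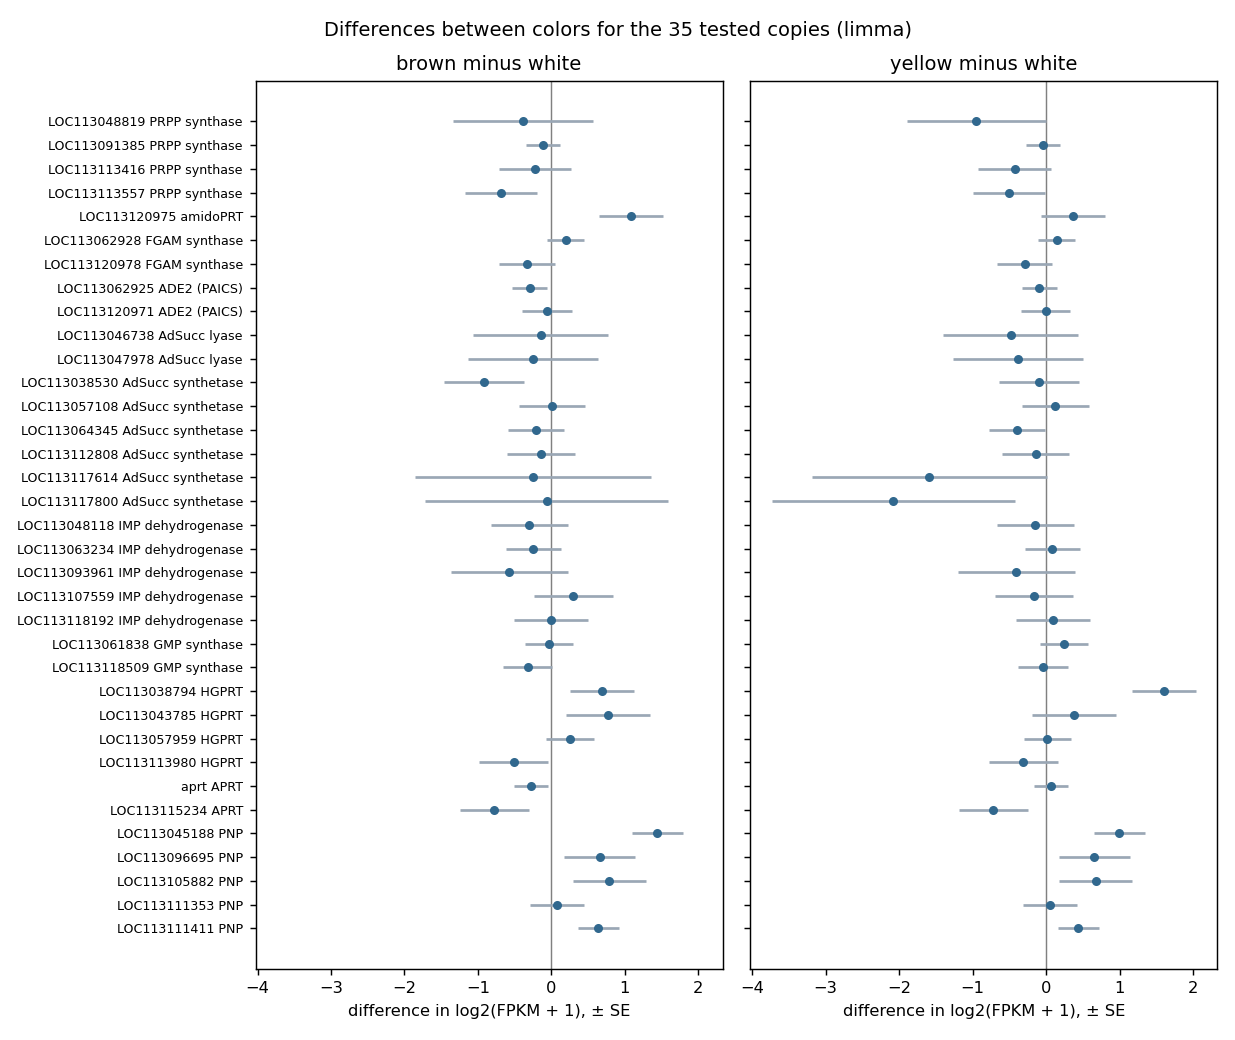
Differences in log2(FPKM + 1) between colors for the 35 tested copies, brown minus white on the left and yellow minus white on the right, with the standard error from limma as bars. The widest bars belong to the adenylosuccinate synthetase copies LOC113117614 and LOC113117800, and the points farthest right are PNP LOC113045188 in the left panel and HGPRT LOC113038794 in the right, with 0 of the 35 copies called.

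PRPP synthase, which makes the activated sugar that every route uses, had 4 copies, all tested. LOC113048819 (chromosome 30, 1915652 to 1921505) had 6.93, 8.57 and 20 FPKM in brown 1 to 3, 4.79, 11.4 and 48.3 in white and 2.67, 3.33 and 30.1 in yellow. In each color its highest value was in the library numbered 3. LOC113113557 (chromosome 14, 9578864 to 9583165) had 8.68, 1.96 and 11.3 FPKM in brown, 9.17, 12.1 and 9.87 in white and 8.12, 7.47 and 5.59 in yellow. In FPKM all yellow values lay below all white values, and the log2 change of -0.50 ± 0.49 (SE) had a limma adjusted p = 1.00. In TPM, which scales each library to the same total, they overlapped, with 17.3 in yellow 1 and 9.25 in white 3. LOC113091385, on unplaced sequence, was the most even copy of the step in FPKM, at 3.16 to 4.26 over the 9 libraries. In TPM it ran from 3.03 (yellow 3) to 9.93 (yellow 2) and was lower in the libraries numbered 3 than in all others.

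The first committed enzyme of the de novo route, amidophosphoribosyltransferase, had 3 copies, of which LOC113120975 held 90.3% of the summed level. LOC113120975 (chromosome 20, 12445560 to 12456327, minus strand) had 7.9, 11.1 and 7.96 FPKM in brown, 3.28, 1.59 and 8.1 in white and 5.74, 5.78 and 3.74 in yellow. In FPKM white 3 lay within the brown range, while white 1 and white 2 were the lowest libraries, and all brown values lay above all yellow values. In TPM brown and yellow overlapped, with 6.87 in brown 3 and 12.2 in yellow 1. Pooled reads were 2.38-fold higher in brown than in white, with a log2 change of 1.08 ± 0.44 (SE; limma adjusted p = 0.788). Over the 21 alternatives the log2 change was lowest without white 2, at 0.66. It was highest without the 3 libraries numbered 3, at 1.64 ± 0.38, where the adjusted p = 0.398 by limma. Against yellow, pooled reads in brown were 1.67-fold higher, with a log2 change of 0.72 ± 0.44. Summed over the 3 copies, brown also lay above yellow without overlap in FPKM, as did 2.72% of all products. In TPM the sums overlapped, with 7.37 in brown 3 and 13.8 in yellow 1. The copy LOC113062927 on chromosome 45 had 0 FPKM in yellow 3 and 0.346 to 1.39 in the other libraries, and LOC113100361 had 3 reads, all in brown 3.

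FGAM synthase, which catalyses a glutamine-dependent middle step, and ADE2, the enzyme known as PAICS in mammals that carries out 2 later steps, had 2 copies each. FGAM synthase LOC113120978 (chromosome 20, 12513084 to 12528458) had 0.59 to 2.65 FPKM and LOC113062928 (chromosome 45, 3363931 to 3376321) 0.882 to 1.91. ADE2 LOC113120971 (chromosome 20, 12451249 to 12461001) had 3.71 to 7.2 FPKM and LOC113062925 (chromosome 45, 3293876 to 3305238) 2.95 to 4.97. The summed ADE2 level was 7.02 to 10.1 FPKM in brown, 7.73 to 11.6 in white and 8.32 to 10.7 in yellow, with a log2 change of -0.17 ± 0.27 (SE) in brown against white and -0.04 ± 0.27 in yellow against white. The colors overlapped for both copies of both enzymes. In TPM all 4 copies were lower in the 3 libraries numbered 3 than in the other 6, as were 34.3% of all genes tested. The summed ADE2 level ran from 7.24 (white 3) to 26.2 TPM (yellow 2).

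These 3 de novo enzymes lie near each other in the genome, in the same order on chromosomes 20 and 45, as the map of the pair of clusters shows. Other genes in the gaps between them were not looked for. On chromosome 20, LOC113120975 and LOC113120971 lie on opposite strands and overlap by 5079 bases, and LOC113120978 starts 52082 bases further on. On chromosome 45, LOC113062927 (3287116 to 3299526) and LOC113062925 overlap by 5651 bases, and LOC113062928 lies 58692 bases beyond. The chromosome 20 copy held 76.1% to 100% of the amidophosphoribosyltransferase level of a library (both copies together), 46.2% to 68.6% of the ADE2 level and 28.1% to 71.6% of the FGAM synthase level. The balance of the 2 clusters thus differed by enzyme. No source used here gives the strand setting of the counting, so reads of the overlapping stretches cannot be assigned to one enzyme with certainty.

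**Figure D3:**
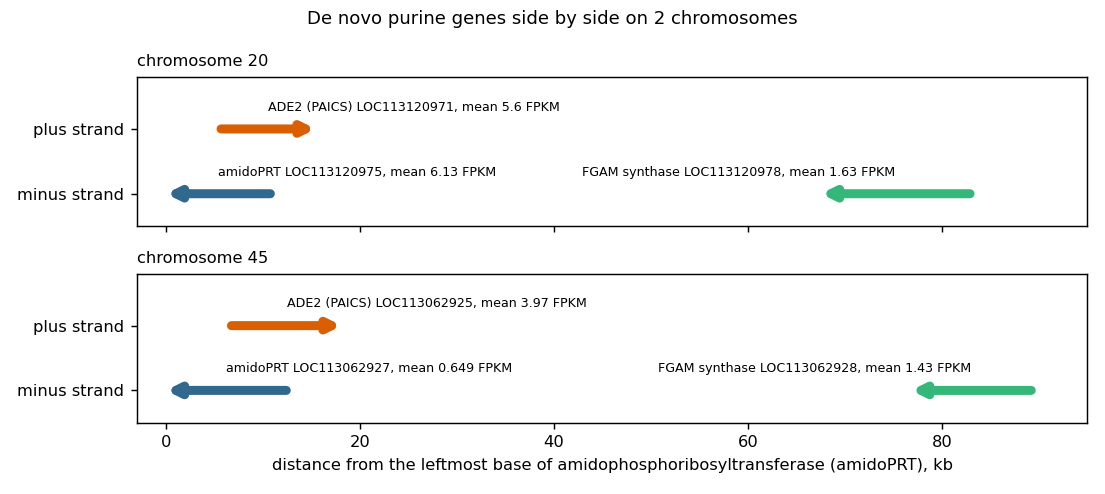
Positions of the 3 de novo purine enzymes on chromosomes 20 and 45, as distance in kb from the leftmost base of amidophosphoribosyltransferase, with arrows pointing in the direction of transcription and the mean FPKM over 9 libraries. The order and strands are the same on both chromosomes, and amidophosphoribosyltransferase averages 6.13 FPKM on chromosome 20 and 0.649 on chromosome 45.

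The AMP branch held the most variable copies, and they varied between libraries of the same color. Adenylosuccinate synthetase joins aspartate to IMP, and isozyme 1 is the form known from mammalian skeletal muscle, while isozyme 2 occurs in most tissues. Isozyme 1 LOC113117800 (chromosome 17, 26934623 to 26942180) had 42.0, 17.0 and 199.7 FPKM in brown, 9.21, 58.3 and 292.6 in white and 1.48, 5.03 and 156.3 in yellow. The library numbered 3 was the highest of each color, and yellow 1 and yellow 2 were the lowest of all. The isozyme 1-like copy LOC113117614 (chromosome 17, 22378074 to 22387521) had 15.0, 10.1 and 80.4 FPKM in brown, 4.23, 29.6 and 150.8 in white and 0.921, 3.24 and 108.7 in yellow, with the libraries in nearly the same order. The third isozyme 1-like copy, LOC113117802, had 30 reads in all.

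The isozyme 2 copies did not show this pattern to that extent. LOC113038530 (chromosome 21, 12382113 to 12386869) had 4.54, 1.03 and 3.82 FPKM in brown, 8.24, 9.94 and 2.6 in white and 7.62, 7.43 and 3.12 in yellow. Its lowest value was brown 2 and its highest white 2, and its log2 change of -0.92 ± 0.54 (SE) in brown against white had a limma adjusted p = 0.788. LOC113057108 had 4.43 to 14.1 FPKM. In FPKM its 3 libraries numbered 3, at 11, 9.21 and 14.1, were above all others, which reached 7.69. In TPM they were not, with 18.2 in white 1 and 8.62 in white 3. LOC113112808 had 2.21 to 7.28 FPKM and LOC113064345 0.717 to 4.09. LOC113064346 had 70 reads in all, with its highest level, 1.06 FPKM, in brown 2.

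Adenylosuccinate lyase, which acts both in the de novo route and after the synthetase, had 2 copies. LOC113046738 (chromosome 28, 9656864 to 9664468) had 14.4, 13.3 and 53.4 FPKM in brown, 10.4, 19.5 and 68.4 in white and 8.95, 8.44 and 62.5 in yellow. LOC113047978 (chromosome 3, 11273422 to 11281978) had 9.48, 4.33 and 28.1, 5.54, 10.8 and 34.3, and 5.02, 5.06 and 32.8 in the same order. For both copies the 3 libraries numbered 3 were above the other 6, and the colors overlapped.

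In all, 7 of the 35 tested copies (20%) were higher in all 3 libraries numbered 3 than in the other 6, beside 7.59% of all genes tested. After conversion to TPM, which scales each library to the same total, 5 copies (14.3%, beside 1.04% of all genes) kept that order. They were LOC113117800, LOC113117614, the 2 lyase copies and the IMP dehydrogenase 2 gene LOC113093961. The last was only just inside, with its lowest library numbered 3 at 8.25 TPM and the highest of the others at 8.21. PRPP synthase LOC113048819 and adenylosuccinate synthetase isozyme 2 LOC113057108 had that order in FPKM only. In the opposite direction, 8 copies (22.9%, beside 34.3% of all genes) were lower in TPM in all 3 libraries. The 5 copies were picked as highest in the 3 libraries that also held the most skeletal muscle reads. That their values moved with muscle reads therefore follows in part from this choice. The part of muscle in the levels of these enzymes was not tested.

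**Figure D4:**
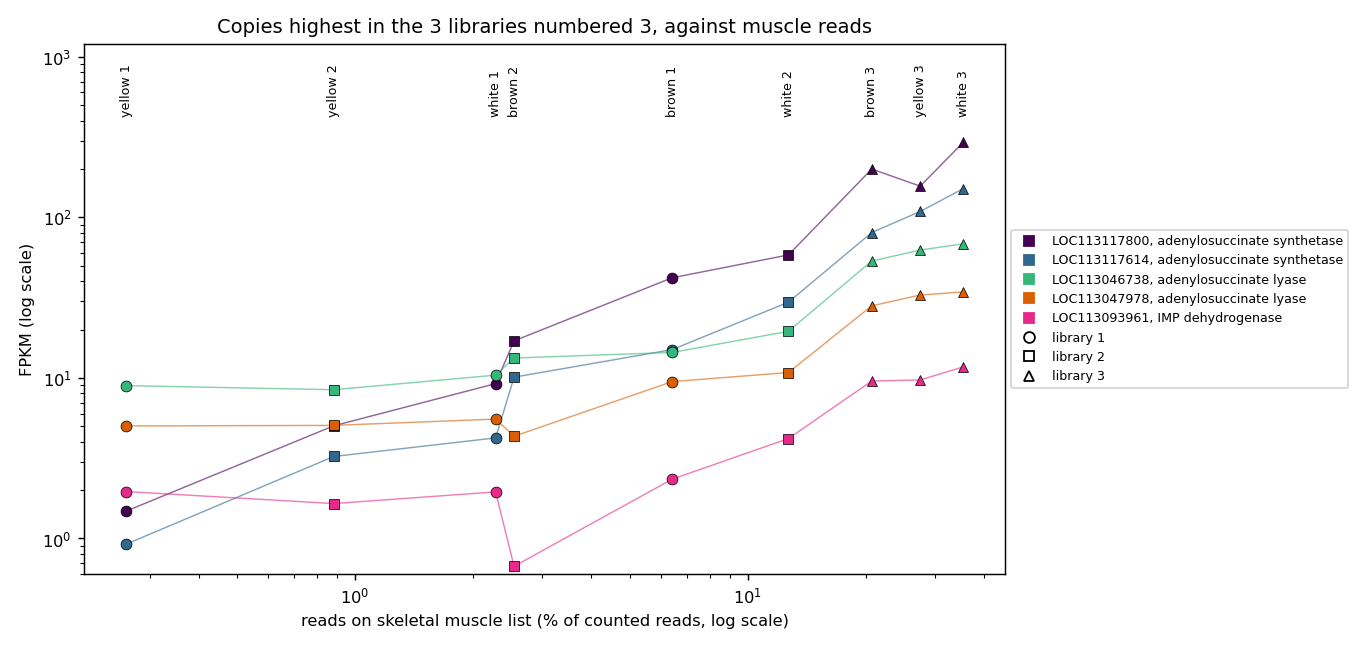
FPKM (log scale) of the 5 copies that were highest in the 3 libraries numbered 3 on the TPM scale too, against the share of a library's reads on the skeletal muscle list (log scale), with 1 symbol per library. LOC113117800 goes from 1.48 FPKM in yellow 1, with 0.261% muscle reads, to 292.6 in white 3, with 35.4%.

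AMP deaminase and adenylate kinase, which act on AMP in muscle, were likewise highest in FPKM in the libraries numbered 3. The deaminase, which returns AMP to IMP and closes the purine nucleotide cycle with adenylosuccinate synthetase and lyase, summed over 12 rows to 101.0, 83.6 and 534.7 FPKM in brown, 52.3, 181.3 and 801.6 in white and 31.0, 37.5 and 474.7 in yellow. Adenylate kinase, which interconverts AMP, ADP and ATP, summed over 18 rows to 705.3, 651.8 and 4037.8, 262.1, 985.5 and 4763.5, and 176.0, 199.8 and 5513.2 FPKM. Among single genes tested, 7.59% were highest in these libraries in FPKM, and no such share was computed for sums. Of the purine interconversion list, the GMP reductase and nucleoside diphosphate kinase sums were also highest there in FPKM. For nucleoside diphosphate kinase this was only just so, with 1803.6 in white 3 and 1787.8 in brown 2. These sums were not compared in TPM. Guanylate kinase was lowest there, at 8.52, 5.41 and 7.69 FPKM in brown 3, white 3 and yellow 3, beside 9.85 to 13.4 in the others. The remaining sums of that list overlapped.

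In the GMP branch the summed level of IMP dehydrogenase, the rate-limiting enzyme of GMP synthesis, was 16.5 to 17.3 FPKM in brown, 15.9 to 21.2 in white and 14.3 to 18.4 in yellow. This narrow range held on the FPKM scale only. In TPM the sum was 33.9, 26.4 and 14.9 in brown, 43.6, 31.2 and 19.8 in white and 36.0, 35.1 and 17.6 in yellow, lowest in the libraries numbered 3. Of single genes tested, 34.3% were likewise lowest there in TPM. The copies differed in which libraries they were highest in. The 1b-like copy LOC113048118 (chromosome 29, 13333160 to 13350530) had 7.54, 3.06 and 3.43 FPKM in brown, 8.31, 7.12 and 2.79 in white and 8.24, 6.74 and 1.96 in yellow. It held 44.8% to 48.8% of the step in 5 libraries and 10.7% to 19.9% in brown 2 and the 3 libraries numbered 3. The isozyme 2 gene LOC113093961, on unplaced sequence, had 2.34, 0.671 and 9.56 FPKM in brown, 1.95, 4.19 and 11.7 in white and 1.96, 1.65 and 9.71 in yellow. It held 52.9% to 55.4% of the step in the libraries numbered 3 and 4.07% to 26.4% elsewhere.

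The isozyme 2-like copy LOC113107559 (chromosome 8, 20751647 to 20761944) was highest in brown 2, with 11.6 FPKM or 70.4% of the step, and had 2.04 to 5.56 FPKM in the other 8 libraries. Brown 2 was also the highest library for amidophosphoribosyltransferase LOC113120975 and for HGPRT LOC113043785. Cell cycle markers did not move together in this library. Rows of the DNA replication licensing factors summed to 208.9 FPKM, beside 39.0 to 141.2 in the others. Proliferating cell nuclear antigen summed to 7.28 FPKM, beside 12.6 to 35.2, and cyclin-dependent kinase 1 to 3.52, beside 3.83 to 12.2. The remaining IMP dehydrogenase copies were low, with LOC113063234 at 0.517 to 2.42 FPKM, LOC113118192 at 0 to 2.47 and LOC113073061 and LOC113107259 at no more than 0.267.

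GMP synthase, which completes GMP, had 2 copies. LOC113061838 (chromosome 43, 19179225 to 19196533) had 6.08, 2.82 and 5.16 FPKM in brown, 5.75, 4.36 and 3.94 in white and 6.4, 6.92 and 4.12 in yellow, and held 82.9% of the step. LOC113118509 (chromosome 18, 13535483 to 13555479) had 0.279 to 1.62 FPKM. The colors overlapped for both copies, and the summed log2 change was -0.13 ± 0.35 (SE) in brown against white and 0.19 ± 0.35 in yellow against white.

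Among the salvage enzymes, HGPRT returns hypoxanthine and guanine to IMP and GMP. Its copy with the smallest F test p, LOC113038794 (chromosome 2, 27114904 to 27124226), had 1.77, 3.76 and 0.47 FPKM in brown, 0.309, 1.49 and 0.409 in white and 4.0, 3.15 and 5.26 in yellow. All yellow values lay above all white values, while brown spanned from the white to the yellow range. White 2 was the only white library of at least 1 FPKM, so the copy passed the filter mainly through the other colors. Pooled reads were 5.28-fold higher in yellow than in white, and the log2 change was 1.61 ± 0.44 (SE), with a limma adjusted p = 0.985. Without the 3 libraries numbered 3 the log2 change was 1.33 ± 0.43. In brown against white its log2 change was 0.69 ± 0.44.

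The other HGPRT copies gave a different picture. LOC113057959 (chromosome 39, 12446797 to 12453739), the most abundant, had 3.45 to 7.15 FPKM in brown, 3.6 to 5.47 in white and 3.11 to 5.2 in yellow. LOC113043785 had 2.64, 8.16 and 2.9 FPKM in brown, 0.99, 1.28 and 4.78 in white and 1.37, 2.15 and 6.73 in yellow. LOC113113980 had 0.555 to 5.45 FPKM and LOC113067248, which was not tested, 0.364 to 1.02. Summed over the 5 copies, the level was 13.0, 16.8 and 16.6 FPKM in brown, 10.4, 10.1 and 15.6 in white and 13.8, 14.5 and 18.2 in yellow, so white 3 lay within both other colors. The summed log2 change was 0.35 ± 0.28 (SE) in brown against white and 0.36 ± 0.28 in yellow against white.

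APRT, which salvages adenine, summed over 3 copies to 3.67, 2.31 and 3.18 FPKM in brown, 3.76, 5.57 and 5.66 in white and 3.22, 3.83 and 6.25 in yellow. In FPKM all brown values lay below all white values, brown 1 only narrowly below white 1, where 5.4% of all products did so. In TPM they overlapped, with 7.45 in brown 1 and 5.3 in white 3. The log2 change was -0.56 ± 0.29 (SE), with a limma adjusted p = 0.804. The gene aprt (chromosome 7, 25943451 to 25946550) was even in FPKM, at 1.78 to 3.48, and LOC113115234 ranged from 0 in brown 2 to 2.96 FPKM in white 3. In TPM aprt ran from 1.54 (brown 3) to 6.93 (yellow 2). The gene aprt overlaps cdt1, a DNA replication gene, by 298 bases on the opposite strand, and LOC113051293, at 0.0691 to 1.48 FPKM, overlaps a Cdt1-like gene by 232 bases.

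PNP had the most copies, 11, of which 5 were tested, and as a sum it was lowest in white skin. Summed over copies it had 37.9, 35.3 and 40.1 FPKM in brown, 19.8, 15.6 and 27.2 in white and 34.8, 42.3 and 32.8 in yellow, that is 37.8 ± 2.41, 20.8 ± 5.88 and 36.6 ± 4.99 (SD, n = 3). The white libraries did not overlap with either of the other colors, which overlapped with each other. Pooled reads were 1.92-fold higher in brown and 1.88-fold higher in yellow than in white. The log2 change was 0.86 ± 0.29 (SE) in brown against white and 0.81 ± 0.29 in yellow against white, and neither passed (limma adjusted p = 0.804 and 1.00 over 14957 products). Between brown and yellow it was 0.05 ± 0.29. Several marker lists of cell types, not only 1, also shifted in these comparisons. Of 48 tested keratinocyte rows, 36 had a log2 change above 0 in brown against white (median 0.63), beside 13262 of all 27420 genes. In yellow against white 35 did (median 0.38), beside 12890 genes. At an unadjusted p under 0.05, 9 and 4 of these rows were higher, beside 963 and 676 genes, and limma called 0. The median was -0.57 and -0.25 for the dermal fibroblast and scale list and -0.57 and -1.81 for the skeletal muscle list. It was 1.63 and 1.68 for the melanophore list, where all 6 tested rows were above 0 in both comparisons. For the xanthophore list it was -0.06 and 0.31, for the immune cell list -0.17 and 0.15. The iridophore list had medians of -0.02 and 0.04. Keratinocyte markers took 3.47%, 2.02% and 2.9% of reads in brown, 5.51%, 1.04% and 0.922% in white and 4.36%, 4.12% and 0.914% in yellow. By reads, white 1 was thus the highest library and yellow 3 the lowest. The part of these cell types in the PNP values was not tested.

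Among sums over copies, limma called 0 of the 11 steps in each comparison, beside 0.0134% of all products in brown against white, 0.0201% in yellow against white and 0% in brown against yellow. PNP was the only step of the 11 above white without overlap in either comparison, where 5.26% of all products lay above white in brown and 4.84% in yellow. The share of products above white in both at once was not computed. At an unadjusted p under 0.05 there were 2 steps in brown against white, PNP and amidophosphoribosyltransferase, 1 in yellow against white and 0 in brown against yellow, beside 5.36%, 3.4% and 1.56% of all products.

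The PNP sum depended on the scale. In TPM it was 77.0, 56.6 and 34.6 in brown, 46.8, 30.5 and 25.5 in white and 74.2, 103.8 and 31.4 in yellow, so white overlapped with both other colors, and the libraries numbered 3 were the lowest of each color. On that scale the log2 change was 0.67 ± 0.59 (SE) in brown against white and 0.89 ± 0.59 in yellow against white. White was the lowest color within each library number on both scales. The labels state no pairing by number, however, and how many of all products share this order was not computed. Without the 3 libraries numbered 3, the log2 change on the FPKM scale was 1.02 ± 0.33 and 1.08 ± 0.33, and the limma adjusted p was 0.406 and 0.985.

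Most of the PNP level came from LOC113096695 with 52.6%, LOC113105882 with 28.8% and LOC113045188 with 13.0%. LOC113045188 (chromosome 27, 5614005 to 5619882) had 4.83, 8.04 and 5.87 FPKM in brown, 2.43, 1.06 and 1.55 in white and 2.49, 4.52 and 6.45 in yellow. In FPKM all brown and all yellow values lay above all white values, with yellow 1 only just above white 1. In TPM both colors overlapped with white, with 5.75 in white 1, 5.07 in brown 3 and 5.32 in yellow 1. Pooled reads were 3.46-fold higher in brown and 2.37-fold higher in yellow than in white. Of all tested copies it had the smallest p in brown against white, and its log2 change there was 1.44 ± 0.35 (SE), with a limma adjusted p = 0.788. In yellow against white the log2 change was 1.00 ± 0.35 (limma adjusted p = 1.00).

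LOC113096695 (unplaced sequence, 440725 to 445132) had 23.3, 13.5 and 18.6 FPKM in brown, 13.8, 7.15 and 13.5 in white and 22.7, 29.2 and 8.6 in yellow. The colors overlapped, since yellow 3 was the second lowest library, and the log2 change was 0.66 ± 0.48 (SE) in both comparisons against white. LOC113105882 (chromosome 7, 10259801 to 10264048) had 7.41, 11.5 and 13.3 FPKM in brown, 2.41, 6.04 and 11.1 in white and 8.0, 6.88 and 15.7 in yellow, with the library numbered 3 the highest of each color. In FPKM white 1 and white 2 were the lowest libraries, and white 3 lay within the other colors. In TPM the library numbered 3 was instead the lowest of brown, at 11.5, and of yellow, at 15. White 3, at 10.4 TPM, was below white 2, at 11.8. The log2 change of LOC113105882 was 0.79 ± 0.50 in brown against white and 0.67 ± 0.50 in yellow against white.

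The low copies were LOC113111411 (chromosome 2, 411084 to 419952), with 0.742, 1.65 and 1.93 FPKM in brown, 0.735, 0.284 and 0.605 in white and 1.27, 0.941 and 1.03 in yellow, and LOC113111353 on chromosome 11. For LOC113111411 all brown and yellow values lay above white in FPKM, brown 1 only narrowly. The log2 change in brown against white was 0.64 ± 0.28 (SE; limma adjusted p = 0.788). In TPM the colors overlapped, with 1.74 in white 1, 1.51 in brown 1 and 0.989 in yellow 3. With every white value under 1 FPKM, this copy passed the filter through brown and yellow alone, which favours a position above white, and it is 1 of the 3 copies at an unadjusted p under 0.05 and of the copies above white without overlap. LOC113111353 had 0.104 to 1.64 FPKM, both extremes in brown. LOC113055639 had 2 reads, both in brown 3. The copies LOC113059737, LOC113059751, LOC113112183, LOC113115984 and LOC113118407 had no read, which allows a level over the 9 libraries of up to 0.0119 to 0.0167 FPKM at a floor of 3 reads. LOC113059737 and LOC113059751 have the same length of 1169 bases and lie 157616 bases apart on chromosome 41. None of the copies is named pnp4a in the deposited table, so which of them corresponds to the zebrafish gene is not given.

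**Figure D5:**
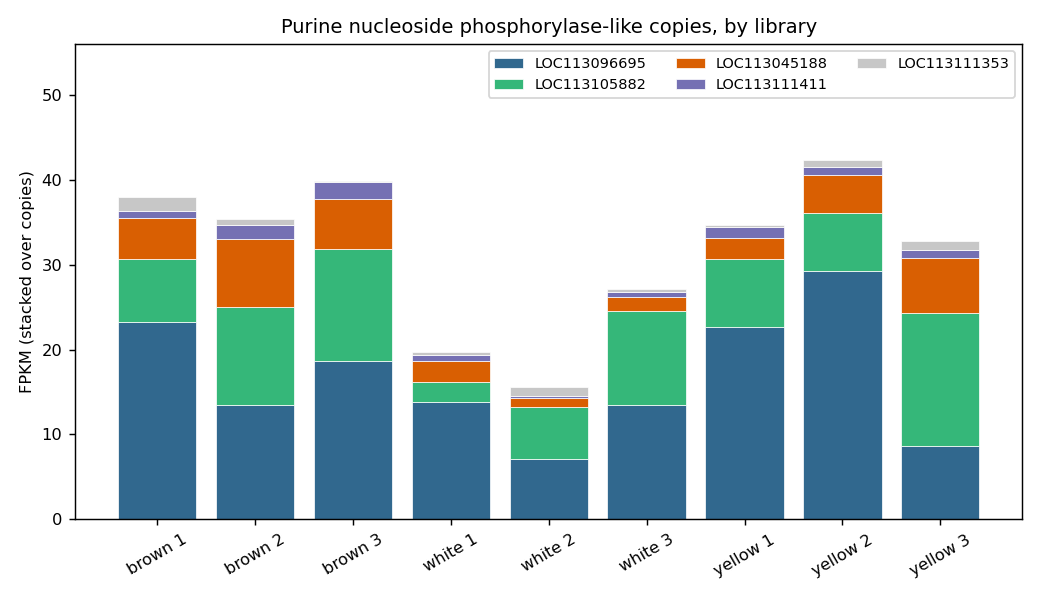
FPKM of the 5 tested PNP copies, stacked for each library. The 3 white bars reach 15.6 to 27.2 FPKM when all 11 copies are summed and are the lowest, and LOC113105882 takes the largest part of yellow 3, where LOC113096695 is lower than in yellow 1 and yellow 2.

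Reads of near-identical copies can be divided between them by the counting, and its rule for reads with several matches is not stated. Values of single copies are therefore less certain than sums over a step. Among the members, 11 overlap another annotated row, 4 of them another member.

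No gene of the neighbouring pathways passed the test either. In each of the 3 comparisons limma called 0 of 62 tested rows of purine interconversion and breakdown and 0 of 23 of one-carbon supply. It also called 0 of 28 rows of pyrimidine synthesis, salvage and breakdown, 0 of 18 iridophore rows and 0 of 37 cell cycle rows. Their median log2 changes in brown against white were -0.05, -0.31, 0.21, -0.02 and -0.12 in that order, and in yellow against white -0.10, -0.16, 0.19, 0.04 and 0.00. At an unadjusted p under 0.05 in brown against white there were 2, 3, 0, 1 and 1 rows, beside 5.72% of all genes. In yellow against white there were 1, 2, 1, 0 and 1, beside 3.5% of all genes.

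In the purine interconversion list, the row with the smallest F test p was LOC113076466, a 5'-nucleotidase domain-containing protein 2-like gene. It entered the list only by the start of its product name, and a role in purine interconversion was not tested. It had 44.9, 65.1 and 34.3 FPKM in brown, 14.8, 23.8 and 28 in white and 40.9, 64.7 and 92.1 in yellow. In FPKM white was below both other colors without overlap, as it was for 5.74% of all genes against brown and 5.09% against yellow. The share of genes below both at once was not computed. This row and the other list rows below were named by a small F test p, which favours such a separation. Their order in TPM was not compared. Guanine deaminase-like LOC113049889, of the enzyme that removes guanine by turning it into xanthine, had 2.04, 3.05 and 4.78 FPKM in brown, 0.543, 0.601 and 0.661 in white and 2.55, 3.46 and 0.176 in yellow. All brown values lay above white, while yellow 3 lay below it. No white library reached 1 FPKM, so the filter was passed through the other colors.

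In one-carbon supply, which provides formyl groups for the purine ring, LOC113085087, like the mitochondrial bifunctional methylenetetrahydrofolate dehydrogenase, had 19.4, 24.8 and 68.0 FPKM in brown, 2.87, 5.45 and 18.3 in white and 14.6, 23.2 and 23.3 in yellow. In FPKM brown lay above white without overlap, only narrowly for brown 1 and white 3. The log2 change of 2.08 ± 0.64 (SE) in brown against white had a limma adjusted p = 0.788. Dihydrofolate reductase-like LOC113061569, whose enzyme regenerates the folate carrier, had 0.819, 1.02 and 0.545 FPKM in brown, 0.0254, 0 and 0 in white and 2.39, 1.75 and 0.492 in yellow. It too passed the filter through brown and yellow alone, so its low white values are no support for a difference.

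Of the iridophore list, the equilibrative nucleoside transporter 2-like gene LOC113051737, of a family that carries nucleosides across membranes, had 5.67, 5.9 and 3.09 FPKM in brown, 7.93, 11.4 and 8.79 in white and 7.43, 4.47 and 5.78 in yellow. In FPKM white lay above both other colors, as it did for 5.18% of all genes against brown and 4.54% against yellow. A share for both at once was not computed. Transcription factor EC-like LOC113047944, of a factor needed for iridophores in zebrafish, had 3.08, 5.18 and 1.89 FPKM in brown, 1.98, 1.54 and 1.63 in white and 2.63, 2.54 and 0.868 in yellow. The pyrimidine list also holds enzymes of salvage and breakdown, among them uridine phosphorylase and cytidine deaminase. In that list upp1, the uridine phosphorylase gene, had 1.75, 2.84 and 2.77 FPKM in brown, 1.14, 2.39 and 1.59 in white and 3.22, 2.9 and 7.42 in yellow. Cytidine deaminase-like LOC113041190 had 7.54 to 13.5 FPKM in brown, 5.37 to 13.5 in white and 3.07 to 6.9 in yellow. The DNA replication gene mcm7-like LOC113088891 had 0 FPKM in all 3 brown libraries, 1.16, 1.53 and 1.23 in white and 0.456, 0.918 and 0 in yellow, while the mcm7-B-like gene LOC113114374 had reads in every library. LOC113088891 passed the filter through the white libraries alone and had to differ there. None of these rows passed the F test after adjustment by limma (adjusted p = 0.999 for each).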

How the data were processed

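Per the labels' protocols, total RNA was used for SMARTER mRNA-Seq libraries. The submitters' processing notes name HISAT2 and StringTie, without versions. The authors deposited FPKM per gene and library. FPKM times gene length gave whole reads for 100% of values, within 0.001 reads, which sets the depth. No file names the genome build, and positions are printed as deposited. Of the gene IDs 72068 matched RefSeq ASM336829v1, 72059 with the same start, and 2229 rows had no name.

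Limma 3.58.1 (limma-trend, R 4.3.3) was run on log2(FPKM + 1), so changes of low genes are understated. All 9 libraries were in 1 fit, and genes with at least 1 FPKM in at least 3 libraries entered two-sided tests, adjusted over all of them (Benjamini-Hochberg, threshold 0.05). Sums over copies were fitted in a table of all products. The fit was also run on simulated counts with 1 spread for all genes, no tissue differences and large changes in abundant genes only. That run does not measure how well small changes of low copies would be found here. Folds are from pooled reads relative to the depth behind the FPKM values, not to the counted reads, and floors cover counting error only. Samples were grouped by the labelled skin color. The members and gene lists were chosen with earlier results of these data known. Members were named as the most abundant copy and the copy with the smallest F test p of each step, the 5 smallest p per comparison and every tested PNP copy, and list genes by the 2 smallest F test p. The sums of AMP deaminase and adenylate kinase were named outside these rules.

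Same-numbered libraries were checked for pairing by the correlation of their deviations from the color means. For yellow and white it was 0.674, 0.22 and 0.766 for numbers 1 to 3, and yellow 2 correlated more with another white library than with white 2. For brown and white it was 0.406, -0.236 and 0.288 and for brown and yellow 0.46, -0.302 and 0.186. The labels do not state a pairing, and whether shared tissue content gave these correlations was not tested. All changes, SE and p-values above are therefore from the fit without a block. With the replicate block limma called 6 genes in place of 12 in yellow against white, and 0 members. Median-of-ratios factors of the FPKM were 1.02 in every library, while in TPM the median log2 change of the genes tested was -0.20 in brown against white and -0.22 in brown against yellow, beside -0.02 and 0.01 in FPKM. Alternatives covered the pseudocount, the filter, the scaling, voom, the block, a muscle covariate and left-out libraries.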

Additional observations from a re-analysis of the deposited data

How the results depend on the processing

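In all 21 alternatives, limma called 0 copies and 0 enzyme steps in each of the 3 comparisons. The log2 change of the PNP sum kept its sign in both comparisons against white, from 0.67 (TPM) to 1.06 (without white 3) in brown against white and from 0.63 (without white 2) to 1.08 (without the libraries numbered 3) in yellow against white. Over all named copies 89 of 1325 alternative values had the opposite sign, and over the sums of all 11 steps 52 of 690, with 0 called. The number of genes called over the whole table was less stable, and the cause was not tested. In brown against white it was 10, and 2 with no filter, 5 with a filter at 5 FPKM, 5 with TPM, 0 with voom, 3 with the replicate block and 0 without the 3 libraries numbered 3. Leaving out 1 library gave 0 (without brown 1, white 1, white 2 or white 3) to 14. In yellow against white it was 12, and 5 with no filter, 5 with a filter at 5 FPKM, 0 with voom, 6 with the replicate block and 6 without the 3 libraries numbered 3, with 2 (without white 2) to 12 when 1 library was left out. In brown against yellow it was 0, and 1 with a pseudocount of 0.1. The replicate block changed no call of a copy or step. Depth limits the copies with few reads, and 9 copies with reads fell below the filter.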

Other observations

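Levels of the 27419 other tested genes were correlated with the most abundant PNP copy, LOC113096695, on the log2(FPKM + 1) scale. Rows without a name or with an uncharacterized product were then left out. The closest of the remaining genes over the 9 libraries are given as a description with no test. They were an interferon regulatory factor 2-binding protein 2-A-like gene (LOC113112348, Pearson r = 0.965), a pim-1-like kinase gene (LOC113074140, r = 0.964), a bcl-2-related ovarian killer gene (LOC113098768, r = 0.955), a prostaglandin F2 receptor negative regulator-like gene (LOC113053445, r = 0.944) and an AHNAK-like gene (LOC113117143, r = 0.942). The points share libraries and their tissue content. LOC113074140 had 123.4, 73.7 and 128.9 FPKM in brown, 58.4, 37.7 and 70.0 in white and 148.8, 152.5 and 47.9 in yellow, with yellow 3 far below the other yellow libraries, as for LOC113096695.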
